A study of Mus musculus with 12 samples.

Results

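Acetylation of histone H3 at lysine 27 (H3K27ac) in whole fetal liver was set against open chromatin in proerythroblasts, both from C57BL/6 mouse embryos at embryonic day 14.5. The members were the peak lists of the 2 ChIP-seq libraries titled H3K27ac and the 2 ATAC-seq libraries titled ProE, read on chromosomes 1 to 19, X and Y of build mm9. They held 99541 peaks of the 353805 in the 11 peak lists of the series. H3K27ac replicate 1 had 28387 regions and replicate 2 had 23733, with median widths of 1260 and 1280 bp. ATAC replicate 1 had 18441 peaks and replicate 2 had 28980, each with 1 summit, the base of highest signal in the peak. Every value below was taken in each of the 4 pairings of an H3K27ac library with an ATAC library. Means are given with the SD over these 4 pairings, which share libraries and are not independent replicates. The labels do not say whether libraries came from separate litters, and they give different catalogue numbers of a single supplier for the H3K27ac antibody in the sample record and in the protocol. The lists hold no read counts, so the depth of each library is unknown and its part in the length of the lists was not tested.

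H3K27ac is placed by the acetyltransferases p300 and CBP on nucleosomes beside active promoters and enhancers. ATAC-seq reads DNA that a transposase can enter, which is mostly the nucleosome-free stretch on which transcription factors sit between such acetylated nucleosomes. Proerythroblasts are the earliest red cell precursors that can be told by their form, and whole fetal liver holds them along with later erythroid cells, hepatocytes, macrophages and blood progenitors. The H3K27ac regions therefore come from a mixture and the summits from a single stage of it. No mm9 gene annotation was used, so the cell labels were not checked against marker genes and sites are named by position.

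More than 50% of the summits of each ATAC library lay in H3K27ac regions that covered 2.07% to 2.52% of the sequence. Against H3K27ac replicate 1, 68.1% of the summits of ATAC replicate 1 (exact Clopper-Pearson 95% interval 67.4 to 68.8) and 56.9% of those of replicate 2 (56.3 to 57.4) were inside. Against H3K27ac replicate 2 the shares were 63.3% (62.6 to 64.0) and 52.6% (52.0 to 53.2). These intervals cover counting error only and are far narrower than the difference between the ATAC libraries. The shorter ATAC list had the higher share with both H3K27ac lists. The longer list was also cut to as many peaks as the shorter one, keeping those of highest −log10 p. Its shares were then 69.6% and 64.8%, next to those of replicate 1. This cut dropped the weakest peaks, so it does not tell list length from peak strength. The density of summits was 0.194 to 0.286 per kb inside and 0.00235 to 0.00546 per kb outside, a ratio of 50.9 to 82.4 in the 4 pairings. A further 1086 to 1849 ATAC peaks per pairing touched a region while their summit stayed outside it. Of the summits of ATAC replicate 1, 62.1% were inside both H3K27ac lists and 30.7% inside neither. For replicate 2 these shares were 51.0% and 41.5%.

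In regions of 1 kb or more, summits gathered toward the middle, and they did so less the wider the region was. Place was measured from 0 at an edge to 100% at the middle, and an even spread puts 50% of summits in the middle 50% of the width. In regions of 1 to 2 kb, 77.6% ± 2.27 (SD, 4 pairings) of inside summits were in the middle 50%. This share was 74.4% ± 1.03 at 2 to 4 kb, 69.3% ± 1.38 at 4 to 8 kb, 61.2% ± 1.55 at 8 to 16 kb and 55.3% ± 1.97 at 16 kb or more. It fell from each of these classes to the next in each of the 4 pairings. Below 1 kb the order was the other way, with 46.2% ± 2.17 under 500 bp and 69.4% ± 5.33 at 500 to 1000 bp. Few of these narrow regions held a summit, 3.47% ± 1.31 and 15.9% ± 3.99. Over all widths the share was 70.9% and 68.6% for ATAC replicates 1 and 2 in H3K27ac replicate 1, and 73.1% and 70.8% in H3K27ac replicate 2. No test was made, because regions within 1 library do not stand for separate samples.

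**Figure D1:**
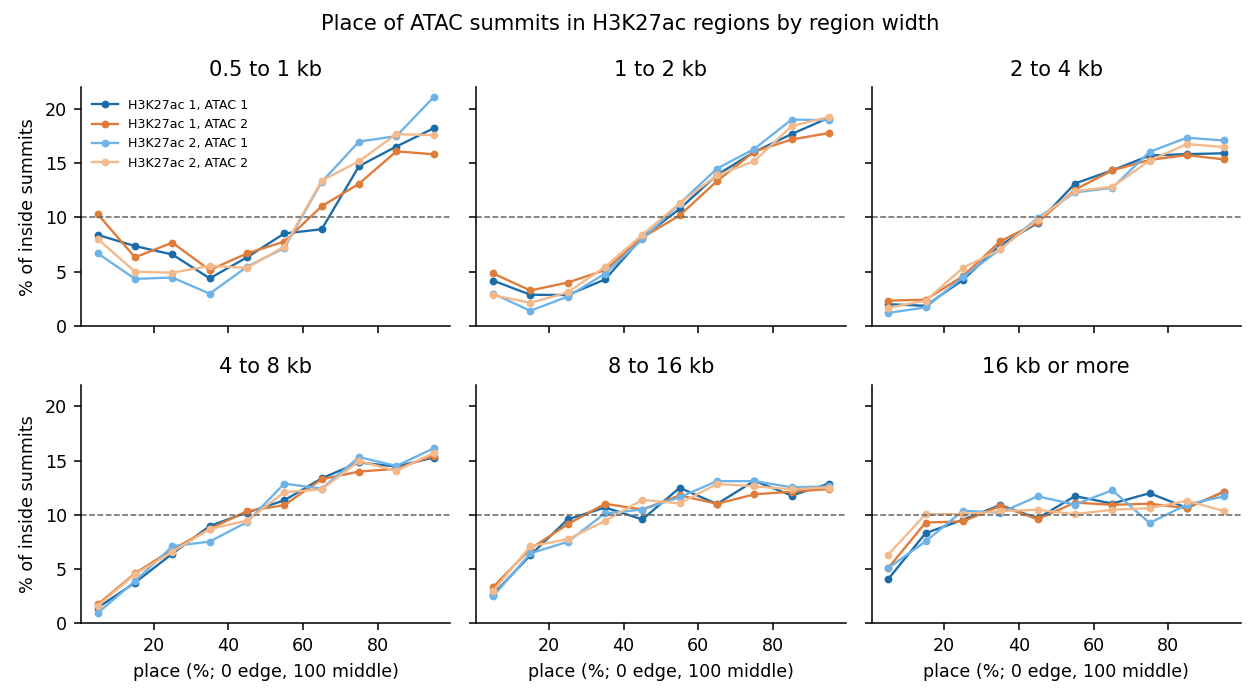
Place of ATAC summits within H3K27ac regions (x axis, percent of the way from the nearer edge to the middle, in steps of 10%) against the share of inside summits (y axis, percent), in 6 classes of region width; each line is 1 pairing of an H3K27ac with an ATAC library and the dashed line is an even spread. In regions of 1 to 2 kb the step next to the middle holds 17.8% to 19.3% of summits and the step next to the edge 2.85% to 4.84%, whereas at 16 kb or more all steps but the outermost hold 7.55% to 12.3%.

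At 16 kb or more, place was close to even except in the outermost step. That step, the 10% of the width nearest to the edges, held 4.09% to 6.34% of summits. The density of summits per kb of region also fell with width, from 0.346 ± 0.0602 at 1 to 2 kb to 0.131 ± 0.0229 at 16 kb or more, while the mean number per region rose from 0.497 ± 0.0897 to 3.05 ± 0.529. Nearly all of the widest regions held a summit, 97.7% ± 1.89, against 45.3% ± 8.01 of those of 1 to 2 kb.

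Measured in bp from the edge, summits formed a small crowd right at the edge and a large one deep inside, with lower density in the first 250 bp inside. Density was 0.163 ± 0.0379 summits per kb in the 100 bp just outside an edge and 0.0980 ± 0.0264 in the first 100 bp inside. At 100 to 250 bp inside it was 0.0903 ± 0.0275. It then went up to 0.259 ± 0.0579 at 250 to 500 bp and 0.351 ± 0.0494 at 500 to 1000 bp, and was lower again at 2 to 5 kb, 0.229 ± 0.0364. Outside it fell to 0.0271 ± 0.0110 at 250 to 500 bp and 0.00980 ± 0.00536 at 500 to 1000 bp. The density at the outer edge was above that at 100 to 250 bp inside in each pairing, by ratios of 1.87 and 1.43 for ATAC replicates 1 and 2 in H3K27ac replicate 1 and of 2.32 and 1.79 in replicate 2. Beyond 500 bp from an edge the density was 1.73 ± 0.125 times that of the outer 500 bp, and 3.05 ± 0.526 times that of the outer 250 bp when the edge zone was set to that width. All these densities pool regions of every width, and regions under 1 kb have bases within 500 bp of an edge only. Their density was 0.104 ± 0.0395 per kb under 500 bp and 0.222 ± 0.0569 at 500 to 1000 bp, against 0.346 ± 0.0602 in regions of 1 to 2 kb. The profile and both ratios thus mix region width with distance from the edge.

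**Figure D2:**
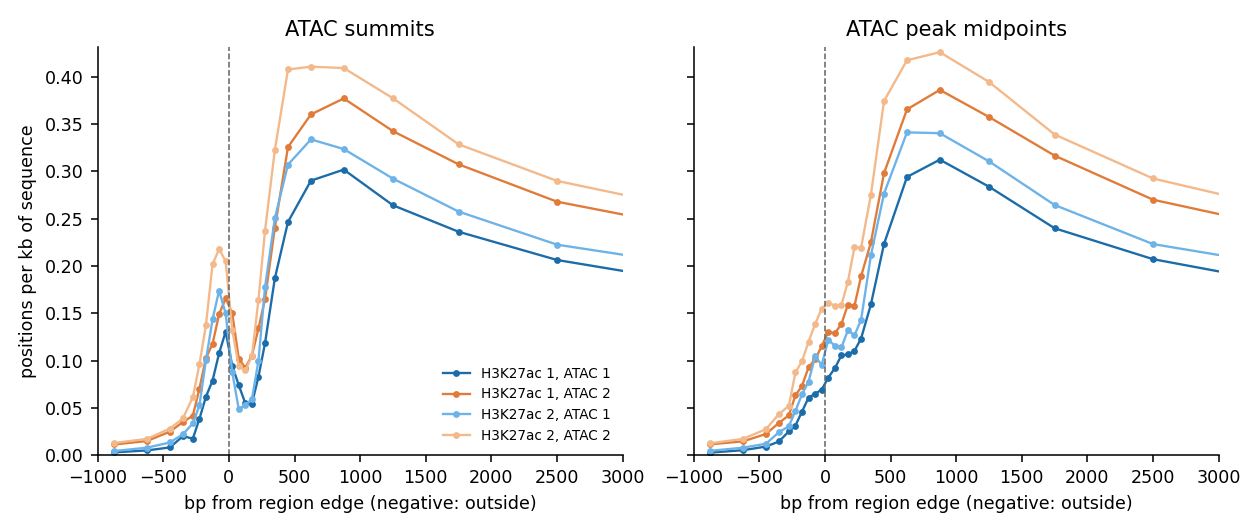
Density of ATAC summits (left) and of ATAC peak midpoints (right), in positions per kb of sequence at the same distance, against the distance in bp from the nearest edge of an H3K27ac region (negative outside, dashed line at the edge); each line is 1 pairing of libraries. Summits are denser in the 100 bp outside the edge than in the first 100 bp or at 100 to 250 bp inside in all 4 pairings, and midpoints are denser at 100 to 250 bp inside than in the 100 bp outside in all 4.

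The crowd at the edge was seen with summits and was absent with the midpoints of ATAC peaks. With each peak's midpoint in place of its summit, the ratio of the outer edge to the inner 100 to 250 bp turned from 1.86 ± 0.364 to 0.734 ± 0.0823. Of the summits less than 250 bp outside an edge, 86.8%, 82.9%, 88.7% and 85.4% belonged to a peak that touched the region, and 33.4% to 40.1% to a peak whose midpoint was inside it. The position of a summit was well repeated between libraries. The nearest summit of ATAC replicate 2 was a median of 20 bp from that of replicate 1 over 17013 shared peaks, and less than 250 bp away for 91.9% of them. Edges were less well repeated. Over 16170 regions that overlapped 1 to 1 between the H3K27ac lists, edges differed by a median of 176 bp, and 58.2% of edges by less than 250 bp. Summits less than 250 bp outside H3K27ac replicate 1 were inside replicate 2 in 12.7% and 16.7% of cases (ATAC replicates 1 and 2), and those less than 250 bp outside replicate 2 were inside replicate 1, the longer list, in 47.3% and 47.0%.

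Summits at the outer edge resembled those 250 to 1000 bp inside in strength and in their cover by H3K4me3, the promoter mark. In the 100 bp outside an edge the median ATAC fold enrichment over the caller's background was 7.73 ± 0.232, next to 8.15 ± 0.246 at 500 to 1000 bp inside and 5.78 ± 0.512 at 100 to 250 bp inside. At 10 to 30 kb from any region it was 5.24 ± 0.0511. H3K4me3 of either library covered 89.1% and 91.7% of the summits of ATAC replicate 1 in the 100 bp outside the 2 H3K27ac lists, and 74.2% and 79.2% of those of replicate 2. At 250 to 500 bp inside, the cover was 89.4% and 90.2% for replicate 1 and 73.8% and 76.7% for replicate 2. At 10 to 30 kb it covered 46.6% and 50.9% for replicate 1 and 25.1% and 27.2% for replicate 2. Farther inside, at 1 to 2 kb from an edge, both measures were below those of the outer edge. There the median fold was 6.87 ± 0.0850 and the cover 76.8% ± 5.47, against a mean cover of 83.5% ± 8.24 in the 100 bp outside.

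Regions with a summit less than 250 bp beyond an edge numbered 1165 and 1682 in H3K27ac replicate 1 (ATAC replicates 1 and 2) and 1437 and 1992 in replicate 2. They made up 4.10% to 8.39% of all regions, and only 21 to 46 per pairing had a summit beyond both edges. Of the flanked regions 75.6% to 83.4% held no summit inside. Over all regions, a summit lay in 34.5% and 42.3% of H3K27ac replicate 1 (ATAC replicates 1 and 2) and 38.7% and 47.2% of replicate 2. Most narrow regions held none: a summit lay in 15.9% ± 3.99 of all regions of 500 to 1000 bp. The flanked regions were not matched for width to either set. Flanked regions without a summit inside had median widths of 566 to 632 bp. Other regions without a summit had median widths of 714 to 881 bp. H3K4me3 overlapped 85.5%, 66.7%, 89.6% and 73.6% of the flanked regions without a summit and 4.49% to 10.0% of the unflanked ones. By definition the former have a summit close by and the latter have none, so this contrast is not particular to flanking. Among summits 500 to 1000 bp inside a region, H3K4me3 covered 82.0% ± 7.12. The median H3K27ac fold enrichment was 2.51 to 2.73 in these flanked regions and 2.60 to 2.72 in the unflanked ones. Flanked regions made up 5.13% to 12.4% of all regions without a summit inside.

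Regions with and without H3K4me3 differed in how often they held a summit and in summit density along the region. Regions that overlapped H3K4me3 of both libraries numbered 9619 and 9351 in the 2 H3K27ac lists, and those without it in either library 17556 and 13175. A summit lay in 83.4%, 86.7%, 79.6% and 82.5% of the former and in 6.13%, 15.4%, 7.81% and 19.1% of the latter. The former were also wider, with median widths of 2203 and 1977 bp against 906 and 840 bp. Among regions of 1 to 2 kb alone, a summit lay in 87.0%, 90.1%, 86.0% and 89.1% with the mark and in 5.57%, 17.1%, 8.40% and 25.1% without it. Where H3K4me3 was present, density was highest at 500 to 1000 bp from the edge, 0.529 ± 0.0250 per kb, and lower at 1 to 2 kb, 0.377 ± 0.0311. Where it was absent, density went on up to 1 to 2 kb, from 0.136 ± 0.0749 to 0.179 ± 0.0729 per kb, and did so in each pairing. These densities pool regions of all widths, and only regions wider than 2 kb have bases 1 to 2 kb from an edge. Without the mark a mean of 14.1% of regions of 1 to 2 kb and 31.3% of those of 2 to 4 kb held a summit. With it the means were 88.1% and 94.9%. The part of region width in the rise was not tested. At the very edge the order also differed. Without H3K4me3 the density in the outermost 100 bp inside, 0.0117 to 0.0638 per kb, was below that at 100 to 250 bp, 0.0123 to 0.0895, in all pairings, whereas regions with the mark had 0.150 to 0.257 against 0.139 to 0.182, the reverse order in all pairings.

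The order in place turned with width. At 1 to 2 kb the share in the middle 50% was 78.5% ± 1.67 with H3K4me3 and 74.3% ± 4.30 without it, higher with the mark in all 4 pairings. The difference was small with ATAC replicate 1: 77.9% and 80.3% (H3K27ac replicates 1 and 2) against 76.2% and 78.4%, the latter from 252 and 264 summits. With ATAC replicate 2 the share was 76.5% and 79.4% against 68.4% and 74.1%, the latter from 791 and 798 summits. At 2 to 4 kb it was 72.8% ± 0.931 with the mark and 79.8% ± 4.24 without it, lower with the mark in all 4 pairings. At 4 to 8 kb it was 65.3%, 64.1%, 66.7% and 65.7% with the mark against 82.3%, 75.7%, 84.9% and 76.5% without it.

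The summit of a region with a single one was the most central, with 77.1% ± 2.04 in the middle 50%, against 65.3% ± 0.929 in regions with 2 summits and 56.8% ± 0.202 in those with 3 or more. Regions with a single summit numbered 7670 and 8872 in H3K27ac replicate 1 and 7233 and 8313 in replicate 2. From the summit to the nearer edge was a median of 701 bp ± 40.8 and to the farther edge 1390 bp ± 101. The ratio of the shorter to the longer arm, taken in each region, had a median of 0.559 ± 0.0148. In 10.6% ± 2.28 of these regions the shorter arm was under 250 bp. Regions with 2 summits had outer arms of 828.5 bp ± 46.9 and 1860.5 bp ± 151, with the summits spanning 28.1% ± 1.71 of the width. With 3 or more summits the span was 51.4% ± 2.27 of the width and the outer arms 1151 bp ± 107 and 3051.5 bp ± 318. Regions with more summits were wider, with median widths of 2138, 3983 and 9672 bp. Of all inside summits, 38.0% to 46.2% shared their region with another.

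Neighbouring summits in an H3K27ac region stood most often about 500 bp apart. The median spacing was 959 and 1068 bp for ATAC replicates 1 and 2 in H3K27ac replicate 1 (2761 and 4468 neighbour pairs) and 944 and 1042.5 bp in replicate 2 (2497 and 4042 pairs). The commonest spacing, in steps of 100 bp, was 400 to 500 bp in ATAC replicate 1 and 500 to 600 bp in replicate 2, with both H3K27ac lists. Pairs under 1 kb made up 50.1% ± 2.58 and those under 2 kb 71.1% ± 0.886. The closest pair was 168 bp apart in replicate 1 and 186 bp in replicate 2. The smallest gap between listed ATAC peaks was 50 and 51 bp, and each peak has 1 summit. Peak widths and these gaps together bound the lower end of the distribution. Median peak widths were 456 and 385 bp in ATAC replicates 1 and 2, and their part in the commonest spacing was not tested. With peaks found in both ATAC lists only, the medians were 984 to 1179.5 bp.

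**Figure D3:**
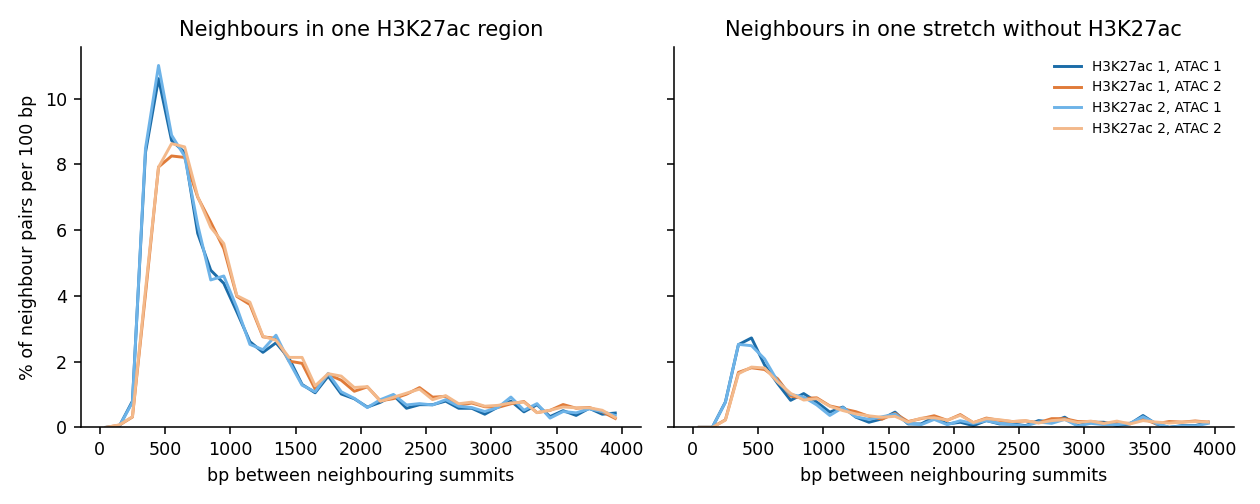
Distance between neighbouring ATAC summits (x axis, bp, up to 4 kb) against the share of neighbour pairs per 100 bp (y axis, percent), for pairs in one H3K27ac region (left) and pairs in one stretch free of H3K27ac (right); each line is 1 pairing of libraries. The modes lie at 400 to 600 bp on the left and at 300 to 500 bp on the right. Pairs under 1 kb are 50.1% on the left and 10.7% on the right.

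Spacing in stretches free of H3K27ac was far wider but had a short-range part of its own, with a mode close to that within regions. The commonest step of 100 bp was 300 to 400 bp for ATAC replicate 1 with H3K27ac replicate 2. In the other pairings it was 400 to 500 bp. The median was 37325.5 and 20299 bp with H3K27ac replicate 1 and 37120 and 21020.5 bp with replicate 2. Pairs under 1 kb made up 11.9% and 9.68%, and 11.9% and 9.60%. A region bounds the spacing of the summits within it and a stretch between regions is long, so these medians are set by the lengths compared as well. Within regions, median spacing went up with width, from 569 bp ± 62.7 at 1 to 2 kb to 735 bp ± 61.1 at 2 to 4 kb, 1034 bp ± 64.3 at 4 to 8 kb, 2069 bp ± 176 at 8 to 16 kb and 4407 bp ± 381 at 16 kb or more. Spacing with and without H3K4me3 was 955, 1070.5, 941 and 1051.5 bp against 801, 935.5, 647 and 883 bp, the latter from only 65 to 322 pairs. Regions without the mark were narrower, and these spacings were not matched for width.

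The H3K27ac region of highest fold enrichment shows how well single summits were repeated. It lay on chromosome 7 from 110987488 to 111030867 (mm9) and had a fold enrichment of 13.4 ± 2.46 (SD, n = 2 H3K27ac libraries, each library's highest peak). Of its 5 summits the first was near the middle, at 46.9% of the width, and the other 4 lay beyond it, up to 88.5%. ATAC replicate 1 placed them at 111007846, 111009620, 111014434, 111019337 and 111025871. ATAC replicate 2 placed them at 111007820, 111009620, 111014428, 111019391 and 111025858. The steps between them were 1774, 4814, 4903 and 6534 bp in replicate 1 and 1800, 4808, 4963 and 6467 bp in replicate 2. The first 20332 bp of the region held no summit in either library. Summit folds were 7.02 to 10.9 in replicate 1 and 7.57 to 9.66 in replicate 2, with the last summit the strongest in both.

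On chromosome 13, from 23826867 to 23858964, the region second by fold enrichment (11.3 ± 2.18) held 6 summits in ATAC replicate 1 and 10 in replicate 2. All 6 of the first library had a counterpart less than 250 bp away in the second. The 4 summits that ATAC replicate 2 added, at 23842929, 23848823, 23854300 and 23855488, had folds of 3.17 to 4.24. Several summits came as close pairs. In ATAC replicate 1 one pair stood at 23830676 and 23831585, 909 bp apart, and another at 23837438 and 23838484, 1046 bp apart, with 5853 bp between the pairs. The third by fold, chromosome 6 from 60876574 to 60887498, held 3 summits in each library, of which the outer 2 were repeated within 3 bp (60881485 and 60881482, 60885668 and 60885667). The middle one, from peaks that overlapped, was at 60885254 in replicate 1 and 60884998 in replicate 2.

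The region with the most, chromosome 13 from 23617565 to 23692036, held 18 summits in ATAC replicate 1 and 21 in replicate 2. It was a single peak in H3K27ac replicate 1 and 3 peaks in replicate 2. In replicate 1 its spacings ran from 667 to 10131 bp, with close pairs such as 23654343 and 23655207, 864 bp apart, set off from the next summit by 7912 bp. Chromosome 16 from 8743056 to 8770075, with 6 and 9 summits in 1 and 4 H3K27ac peaks of the 2 lists joined, had its last 3 summits of replicate 1 at 8767640, 8768365 and 8769380, the last only 695 bp from the edge.

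Some wide acetylated spans had no summit in either library. Joining the overlapping peaks of the 2 H3K27ac lists gave 18238 spans held by both, of which 6409 had none. The widest were on chromosome 9 from 98219259 to 98238275 (19.017 kb), chromosome 2 from 103888057 to 103905280 (17.224 kb) and chromosome 13 from 36308851 to 36325184 (16.334 kb). None was unbroken in either list: they joined 2 and 4, 4 and 4, and 2 and 3 peaks of H3K27ac replicates 1 and 2. Their H3K27ac fold enrichments were 2.94 ± 0.0709, 3.11 ± 0.274 and 3.01 ± 0.137 (SD, n = 2). None of the 3 overlapped an H3K4me3 region of both libraries.

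Summits outside H3K27ac fell into those beside a region and those far from any. The median distance to the nearest region was 17545.5 and 14376 bp for ATAC replicates 1 and 2 with H3K27ac replicate 1 and 18287.5 and 16062 bp with replicate 2. Within 250 bp were 20.1%, 13.8%, 21.8% and 14.8% of outside summits, and within 1 kb 25.5%, 20.1%, 27.3% and 20.4%. Only 13.4% to 21.8% lay between 1 and 10 kb, and 58.1% to 60.1% lay beyond 10 kb. Density per kb was lower at 1 to 3 kb, 0.00569 ± 0.00344, than at 5 to 10 kb, 0.00966 ± 0.00548, in each pairing. From there it fell with distance, to 0.00482 ± 0.00206 at 30 to 100 kb. Beyond 100 kb it was 0.000913 ± 0.000183. When H3K27ac peaks were restricted to −log10 q of at least 5, the mean median distance went from 16568 to 38536 bp and the share within 1 kb from 23.3% to 6.72%. With the regions held by both H3K27ac lists that share was 14.2%. When ATAC replicate 2 was cut to the length of replicate 1 by highest −log10 p, its median distances were 9982.5 and 10509 bp. Its median spacing in a region was then 1475 and 1424 bp.

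**Figure D4:**
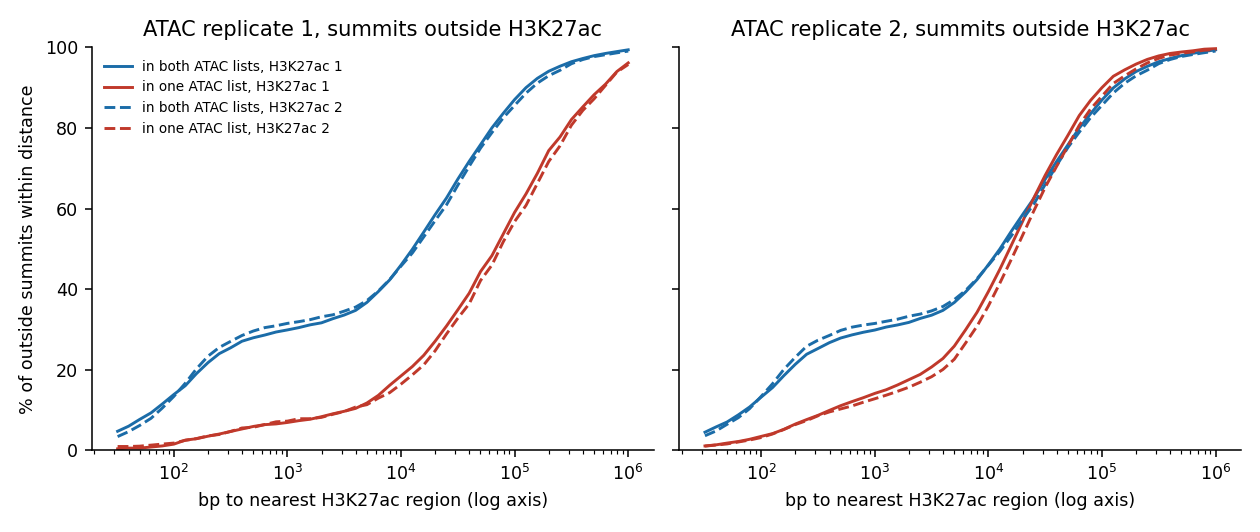
Cumulative share of ATAC summits outside H3K27ac (y axis, percent) within a distance of the nearest H3K27ac region (x axis, bp, log axis), for peaks in both ATAC lists (blue) and in one list (red), with H3K27ac replicate 1 (solid) and 2 (dashed). The blue curves step up before 250 bp, where they hold 23.8% to 25.8%, stay nearly flat to several kb and rise again, and the red curves hold 3.85% to 7.59% at 250 bp.

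The 3 strongest shared summits outside H3K27ac were 36646 bp or more from it. The highest fold of each ATAC list was the same site, chromosome 3 at 5860677 in replicate 1 (28.3) and 5860690 in replicate 2 (32.4), 283939 bp or more from H3K27ac and free of H3K4me1, H3K4me2 and H3K4me3. Next came chromosome 9 at 35112952 (fold 27.1 ± 0.300, SD, n = 2 ATAC libraries), under H3K4me3, and chromosome 12 at 3110009 (23.0 ± 1.56), under H3K4me1 and H3K4me3. No filter for artefact-prone sequence was applied, and its part in these 3 sites was not tested. The most remote shared summits were on chromosome 1 at 113761555, which was 4481444 bp from the nearest region, on X at 126284211 and on chromosome 12 at 47920521. All 3 lay under H3K4me2 and H3K4me3, with mean folds of 10.1, 6.58 and 5.82.

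Breaks in acetylation between close regions held fewer summits per kb than the regions beside them. Gaps of up to 1 kb between neighbouring H3K27ac regions numbered 832 in replicate 1 and 1976 in replicate 2. They held 17 and 31 summits of ATAC replicates 1 and 2 in the first list and 44 and 74 in the second. Density in gaps was 0.0214 to 0.0430 per kb against 0.119 to 0.177 in the regions beside them, a ratio of 0.216 ± 0.0303. Over all sequence outside H3K27ac the density was lower still, 0.00235 to 0.00546 per kb. The caller left no gap narrower than 909 and 761 bp in the 2 lists, so no shorter break was examined. With gaps of up to 3 kb the ratio was 0.0955. With H3K27ac peaks of −log10 q of at least 5 too few summits were left to read: the 52 gaps of replicate 1 held 0 in both ATAC libraries, and the 121 gaps of replicate 2 held 1 and 3. Only 4 pairs of shared ATAC peaks had both summits in such a gap of both H3K27ac lists. The strongest were on chromosome 4 at 151482202 (fold 6.47 ± 0.895), chromosome 5 at 52216122 (6.34 ± 2.70) and chromosome 13 at 23515798 (6.04 ± 1.82).

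The same held where one H3K27ac list broke a region that the other kept whole. Inside regions of H3K27ac replicate 1, 2047 stretches (median 984 bp) lay between regions of replicate 2. They had 0.0215 and 0.0370 summits per kb of ATAC replicates 1 and 2. Stretches covered by both lists had 0.246 and 0.317. Inside regions of replicate 2, 677 stretches lay between regions of replicate 1 and had 0.0194 and 0.0328. Ends of regions that reached past the other list's edge stood between these values, at 0.0861 and 0.125 per kb for replicate 1 and 0.0398 and 0.0830 for replicate 2.

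ATAC peaks seen in one library alone were placed less often in H3K27ac than peaks seen in both, and the 2 libraries' own peaks differed from each other. Peaks that no peak of the other library overlapped by 1 bp numbered 1428 in ATAC replicate 1 (7.74% of its list) and 12282 in replicate 2 (42.4%). Of those of replicate 1, 21.8% (95% interval 19.7 to 24.1) and 17.7% (15.8 to 19.8) were inside H3K27ac replicates 1 and 2, against 72.0% and 67.1% of its shared peaks. Of those of replicate 2, 36.9% (36.0 to 37.7) and 33.6% (32.8 to 34.4) were inside, against 71.5% and 66.6%. The difference between shared and single-library peaks averaged 41.8 points ± 9.22 and was 27.0 points when shared peaks had to overlap by at least 50% of both. Which peaks count as a library's own also depends on the length of the other list. With equal ATAC list lengths the difference was 45.7 and 44.9 points for ATAC replicate 1 (H3K27ac replicates 1 and 2). For ATAC replicate 2 it was 29.3 and 28.2 points. Single-library peaks were weaker and narrower, with median folds of 4.08 and 4.68 against 6.71 and 7.86, and median widths of 233 and 265 bp against 489 and 591 bp.

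**Figure D5:**
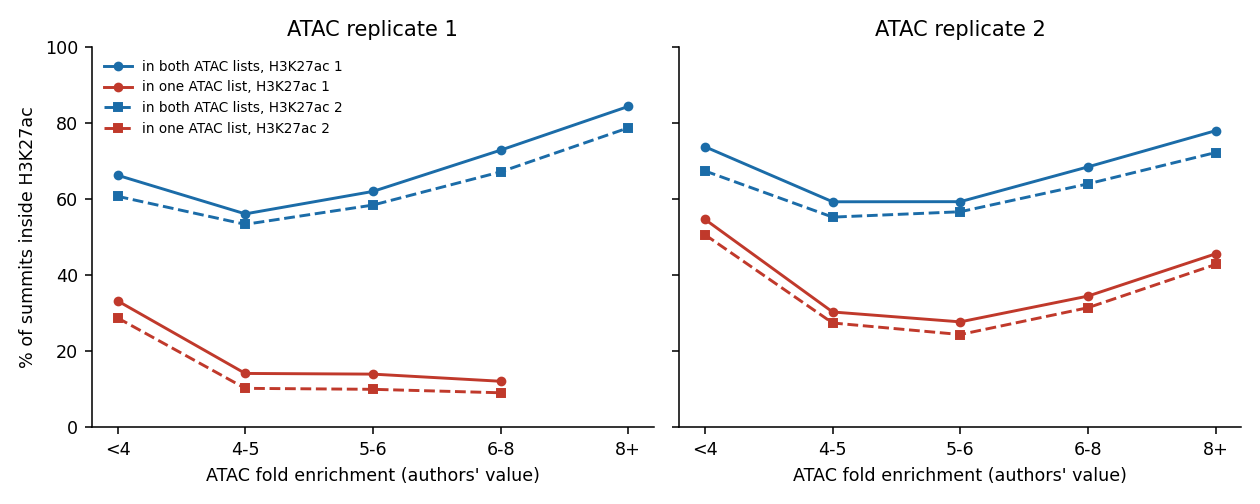
Share of ATAC summits inside H3K27ac (y axis, percent) by the authors' ATAC fold enrichment (x axis, 5 classes), for peaks in both ATAC lists (blue) and in one list (red), with H3K27ac replicate 1 (solid, circles) and 2 (dashed, squares); classes with fewer than 20 peaks are left out. At a fold of 5 to 6, 56.7% to 62.1% of shared peaks and 10.0% to 27.8% of single-library peaks are inside.

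Peaks of like strength kept the difference. At a fold of 4 to 5, 56.2% and 53.4% of the 2907 shared peaks of ATAC replicate 1 were inside H3K27ac replicates 1 and 2, and 14.2% and 10.3% of its 663 own peaks. For ATAC replicate 2 the values were 59.4% and 55.3% of 1560 shared peaks and 30.4% and 27.5% of 4286 own peaks. In each fold class with at least 20 peaks the shared peaks were inside more often, in all 4 pairings. The share did not go up steadily with strength. Below a fold of 4 it was higher than at 4 to 5 for shared and single-library peaks in each pairing, for example 54.7% against 30.4% of the own peaks of replicate 2 in H3K27ac replicate 1.

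Inside regions, single-library peaks were less central. The middle 50% held 58.3% and 59.3% of those of ATAC replicate 1 and 62.1% and 63.2% of those of replicate 2, against 71.2%, 73.4%, 71.0% and 73.6% of shared peaks. This comparison was not matched for the number of summits in a region. Over all peaks the share was 77.1% in regions with 1 summit, 65.3% with 2 and 56.8% with 3 or more. Of the inside single-library peaks of replicate 1, 64.1% and 68.0% joined a region that already held a shared summit, against 42.4% and 41.9% for replicate 2. The own peaks of ATAC replicate 2 thus gave the sole summits of 2360 and 2161 H3K27ac regions, and those of replicate 1 of 112 and 81. Outside, the own peaks of replicate 1 were a median of 68793 and 74678 bp from acetylation and those of replicate 2 15298 and 17666 bp, the latter near the 12619 to 13405 bp of shared peaks. A summit less than 250 bp outside an edge was found for 3.01% and 3.22% of the own peaks of replicate 1, for 4.79% and 4.88% of those of replicate 2 and for 6.72% to 8.62% of shared ones.

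The strongest peak of ATAC replicate 2 alone was on Y, summit 582221, with a fold of 15.4, inside H3K27ac replicate 1 and 64 bp outside replicate 2. Its next was on chromosome 17 at 36179735 (fold 13.7), 137 and 101 bp outside the 2 H3K27ac lists and under all 3 methylation marks. The strongest of replicate 1 alone, on X at 132808343 (fold 8.78) and on chromosome 3 at 86714410 (fold 8.23), lay 21283 to 106914 bp from H3K27ac and under none of the other marks.

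Against the other histone marks, H3K27ac had the highest ratio of summit density just outside an edge to that at 100 to 250 bp inside. This ratio, as a mean over both ATAC libraries, was 1.65 and 2.06 in the H3K27ac libraries. It was 1.00 to 1.08 in the 3 H3K4me1 libraries, where it was 1.17 to 1.31 with ATAC replicate 1 and 0.837 to 0.875 with replicate 2, so its side of 1 turned with the ATAC library. It was 0.382 and 0.449 in the H3K4me2 libraries and 0.616 and 0.630 in the H3K4me3 libraries. The density in the 100 bp outside an edge was not itself highest in H3K27ac. It was 0.163 per kb in H3K27ac, 0.177 in H3K4me3, 0.0556 in H3K4me1 and 0.0332 in H3K4me2. At 100 to 250 bp inside, the density was 0.0903 in H3K27ac, 0.282 in H3K4me3, 0.0580 in H3K4me1 and 0.0794 in H3K4me2. Place also parted at large widths. At 8 to 16 kb the middle 50% held 61.2% ± 1.40 (SD, n = 2 libraries) of summits in H3K27ac regions, 58.3% ± 1.47 (n = 3) in H3K4me1, 49.0% ± 2.12 (n = 2) in H3K4me2 and 35.9% ± 4.36 (n = 2) in H3K4me3. Over all widths the shares were closer, 70.8% ± 1.56, 68.3% ± 0.403, 69.8% ± 0.0250 and 66.5% ± 1.61. Median spacing was 1003 bp ± 14.3 in H3K27ac, 1155 bp ± 45.3 in H3K4me1, 951 bp ± 35.9 in H3K4me2 and 765 bp ± 17.9 in H3K4me3.

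Over these 3 measures and 3 marks, 9 two-sided exact permutation tests over libraries were made. The edge ratio was chosen after seeing the data, so its tests do not stand as separate support. H3K27ac was apart from H3K4me1 and H3K4me3 in all 3 measures, with p = 0.2 and p = 0.333, the smallest that 2 against 3 and 2 against 2 libraries allow in an exact test. Against H3K4me2 the edge ratio and the spacing had p = 0.333 and the share in the middle 50% p = 1 in the exact test. All but the last had a Benjamini-Hochberg adjusted p of 0.375 over the 9, so no pair of marks can pass 0.05 in this design.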

How the data were processed

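Whole fetal liver H3K27ac (2 libraries) and proerythroblast ATAC (2 libraries) were used, with the H3K4me1, H3K4me2 and H3K4me3 lists for comparison. Reads had been trimmed, mapped to mm9 and turned into peaks by the submitters; tools named in the submitters' processing notes include Trimmomatic 0.32, Bowtie 1.0.1, SAMtools and MACS2. Their settings, the control used and any cut-site shift are not given in the sources at hand. Each deposited peak carries the authors' fold enrichment (a ratio to local background), −log10 p, −log10 q and a score that follows the −log10 q. Only chromosomes 1 to 19, X and Y entered.

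An ATAC peak's position was its summit. Density was the number of summits divided by the bases at the same distance from an edge. Peaks were shared when they overlapped by 1 bp. Counting used Python 3.11.15 with pandas 2.3.3, and SciPy 1.17.1 gave the intervals. The scripts were tested on simulated data. Alternatives were a stricter −log10 q, midpoints, equal list lengths, joined or common H3K27ac regions, other cutoffs and each library left out. For equal list lengths the longer ATAC list kept its peaks of highest −log10 p. The members and measures were chosen with earlier results of these data known, and the edge ratio and the wider gaps after seeing the data. Named sites are those of highest fold, most summits, greatest width without a summit, greatest distance or highest fold among single-library peaks. No sequence is printed, since the sequence tables at hand are on another build.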

Additional observations from a re-analysis of the deposited data

How the results depend on the processing

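No paired analysis was possible because H3K27ac shared only 1 title tag with H3K4me2 and H3K4me3 and none with H3K4me1 or ATAC, and that tag stands on H3K4me3 replicate 2 but on H3K27ac replicate 1; its meaning is not given. Restricting H3K27ac to −log10 q of at least 5 gave 47.3% of summits inside, a ratio of deep to edge density of 1.41, a median outside distance of 38536 bp, 6.72% of outside summits within 1 kb, a gap ratio of 0.0463 (0 and 0 with H3K27ac replicate 1, 0.0560 and 0.129 with replicate 2) and an edge ratio (100 bp outside over 100 to 250 bp inside) of 2.77. Restricting ATAC likewise gave a spacing of 1111.5 bp and an outside distance of 14242 bp. Equal ATAC list lengths gave a mean spacing of 1200.5 bp (959 and 944 bp in ATAC replicate 1 against H3K27ac replicates 1 and 2, 1475 and 1424 bp in replicate 2), an outside distance of 14081 bp (17545.5 and 18287.5 bp, 9982.5 and 10509 bp), 28.3% within 1 kb and an edge ratio of 2.23. Regions held by both H3K27ac lists gave a deep to edge ratio of 1.54, an outside distance of 24320 bp, 14.2% within 1 kb and a gap ratio of 0.170. Joining H3K27ac within 1 kb gave a deep to edge ratio of 1.59. Midpoints gave an outside distance of 19478 bp, 18.6% within 1 kb and an edge ratio of 0.734, the only reversal; the cause was not tested. The middle 33.3% of the width held 50.8%, an edge zone of 250 bp gave 3.05, gaps of up to 3 kb gave 0.0955 and a 50% overlap gave 27.0 points. Leaving out each library in turn gave 54.7% to 65.7% inside, 69.7% to 72.0% in the middle 50%, deep to edge ratio 1.64 to 1.82, spacing 951.5 to 1055 bp, outside distance 15219 to 17916.5 bp, 20.2% to 26.4% within 1 kb, gap ratio 0.191 to 0.241, 33.8 to 49.8 points and edge ratio 1.61 to 2.10.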

Other observations

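The share of summits inside H3K27ac, as a mean over the 4 pairings, ranged over the autosomes from 56.1% on chromosome 8 to 65.1% on chromosome 19. On X it was 63.6%, although H3K27ac covered only 0.765% and 0.668% of the span of X in the 2 lists. Y held 10 summits in ATAC replicate 1 and 29 in replicate 2, with a mean of 8.53% inside.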
